A study of Mus musculus with 4 samples.

Results

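The collagen genes of the mouse stria vascularis (SV) were taken as every gene whose symbol is Col followed by a number, the letter a and a number, and which was listed in both the cell and the nucleus files. This gave 44 of 27873 shared genes, and the 33 genes with at least 30 unique molecular identifiers (UMIs, the tags by which single RNA molecules are counted) over the 4 libraries are described by name. The 33 comprised 10 fibrillar, 8 network, 3 beaded filament, 6 fibril-associated, 3 transmembrane, 2 multiplexin and 1 other collagen. The samples were whole cells and nuclei from the SV of untreated, wild-type CBA/J mice at postnatal day 30. Whole cells, released with trypsin, were profiled by single cell RNA-Seq (scRNA-Seq) in 3 captures, and nuclei by single nucleus RNA-Seq (snRNA-Seq) in 1 capture. Each capture was 1 suspension pooled from several mice, so that individual mice cannot be told apart and p-values measure the spread between captures, which may be technical. The question put to the data was which SV cell types hold which collagen transcripts, and whether the balance of fibrillar against network collagens differs between the types.

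Collagens are secreted or membrane-bound proteins made of 3 chains wound into a triple helix, which requires glycine to be the first of every 3 residues of each chain. Fibrillar collagens assemble into the cross-striated fibrils of connective tissue, and fibril-associated collagens bind to the surface of these fibrils. Network collagens form sheets instead, of which the type IV network of basement membranes is the best known. In the inner ear, type XI and type IX collagen chains are known from the tectorial membrane and spiral ligament, and defects in the type IV chains encoded by Col4a3, Col4a4 and Col4a5 cause Alport syndrome, a kidney disease with hearing loss. The SV itself is a layered epithelium in which marginal cells face the endolymph, pigmented intermediate cells lie in the middle and basal cells seal the layer against the spiral ligament, the home of fibrocytes. Spindle and root cells border the SV at its edges.

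Depth set the limits of what could be seen. The captures of cells held 392, 1358 and 1580 barcodes with 2811309, 8113494 and 8340882 UMIs, and the capture of nuclei held 11057 barcodes with 22332501 UMIs. The libraries shared between 0 and 32 barcodes with one another. After filtering, 3 captures gave 130 marginal, 996 intermediate, 104 basal, 33 spindle/root and 62 fibrocyte cells, and the nuclei gave 2592, 1472, 646, 207 and 24 of these types. Capture 1 held only 4 spindle/root cells and 3 fibrocytes, so its sums for these types entered no test. Types are clusters named by a list of marker genes, so each is strictly a marginal-like or basal-like cluster, and no collagen served as a marker or as a variable gene in clustering. Each type held the highest summed level of its own marker list, yet intermediate cell markers in marginal and basal cells reached 30.5% and 39.7% of their level in intermediate cells, compared with 4.26% and 14.6% in nuclei. Basal markers stood at 68.3% of their basal level in fibrocytes and at 29.5% in spindle/root cells. A further 1651 cells and 3925 nuclei carried no name, and their median mitochondrial share was 56.9% and 49.7%. The levels below are CPM, a gene's UMIs per 1000000 UMIs of all genes in the same type and capture, and all intervals are exact 95% intervals that cover counting error only. UMIs were not divided by gene length, so levels are compared between types and not between genes.

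The coding sequences show how the collagen classes differ. In fibrillar collagens the glycine codon, which has the form GGN, opens one triplet of codons after another over long unbroken runs, which cover between 35.3% (Col27a1) and 74.1% (Col1a2) of the coding sequence, whereas the repeats of network collagens are interrupted. In 30 codons from the triple helix of Col11a2, a fibrillar chain of type XI collagen and the leading collagen of basal cells, each triplet opens with such a codon. In Col4a5, a type IV chain, and in Col8a1, the network chain that led in Reissner's membrane nuclei, 2 codons interrupt the register. The stretches comprise codons 994 to 1023 of Col11a2, codons 1060 to 1091 of Col4a5 and codons 195 to 226 of Col8a1 in GENCODE vM21 transcripts, and capitals mark the codons that open a triplet.
Col11a2: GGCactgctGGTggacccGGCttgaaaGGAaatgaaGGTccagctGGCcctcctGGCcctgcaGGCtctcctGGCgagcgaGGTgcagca
Col4a5: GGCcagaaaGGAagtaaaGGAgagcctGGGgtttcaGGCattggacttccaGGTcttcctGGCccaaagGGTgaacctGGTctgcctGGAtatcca
Col8a1: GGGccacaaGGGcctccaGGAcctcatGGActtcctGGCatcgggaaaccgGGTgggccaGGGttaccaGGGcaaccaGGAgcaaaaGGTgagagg
Over the 33 genes, the longest unbroken run spanned 217 to 344 triplets in the 10 fibrillar collagens (median 338) and 39 to 66 in the 8 network collagens (median 45). The shortest fibrillar run belonged to Col27a1. The 6 fibril-associated collagens ranged from 32 to 113 triplets, with 113 in each of Col9a1, Col9a2, Col9a3 and Col22a1. The 3 beaded filament collagens had runs of 42 to 87 triplets and the 3 transmembrane collagens runs of 40 to 44.

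**Figure D1:**
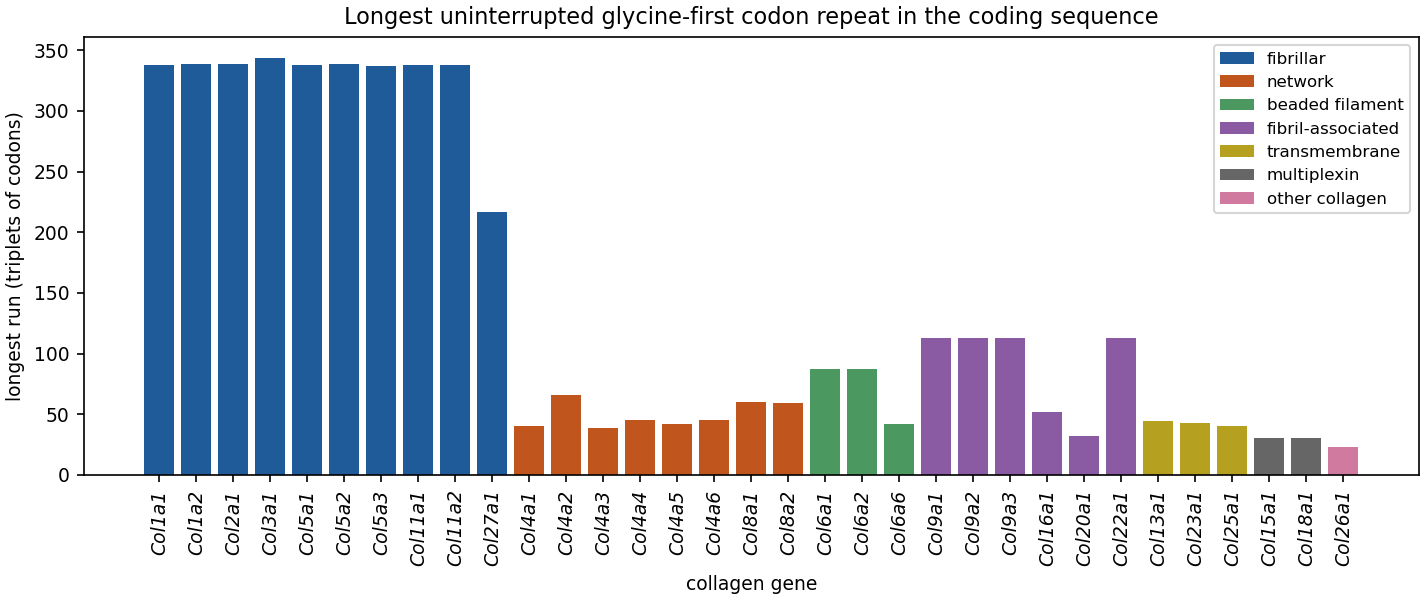
Longest uninterrupted run of glycine-first codon triplets in the coding sequence of each of the 33 collagen genes, with bars colored by class and starting at 0. All 10 fibrillar collagens reach at least 217 triplets, and no gene of another class exceeds 113.

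Collagen transcripts were sparse. Over all barcodes, the 44 genes totaled 4255 UMIs in cells and 7799 in nuclei. Summed over the genes, collagens reached 556, 623 and 543 CPM in the basal cells of captures 1 to 3, 269, 277 and 338 CPM in intermediate and 191, 151 and 117 CPM in marginal cells. Of these 3 types basal cells thus held the most and marginal cells the least in every capture. Among nuclei of the 4 SV types, basal was highest at 1001 CPM (943 to 1062) and marginal lowest at 376 CPM (358 to 394), while Reissner's membrane nuclei reached 3834 CPM (3518 to 4170) and erythroid nuclei 52.3 CPM. These rankings leave out unnamed clusters that were rich in collagens. Cluster 9.0, 46 nuclei with 97013 UMIs of all genes, held 208 fibrillar and 102 network UMIs. Cluster 10.0, 42 cells with 245190 UMIs of all genes, held 178 and 49. Cluster 9.1, 37 nuclei with 56554 UMIs of all genes, held 60 and 25. Of the 33 described genes, those nearest the limit were Col6a6 and Col13a1 with 31 UMIs each, Col4a1 and Col22a1 with 32 and Col4a2 with 33, whereas Col19a1 with 28, Col14a1 with 26 and Col7a1 and Col24a1 with 24 each fell below it. Col10a1 had 0 UMIs. Only 6 of the 33 genes passed the count filter of the test between types in cells, namely Col5a3, Col11a2, Col27a1, Col16a1, Col9a2 and Col9a3. A gene can pass this filter through the type in which it is high, so the number called among the 6 says little about collagens as a class. Without the filter, 29 of the 33 could be tested among 15461 genes.

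**Figure D2:**
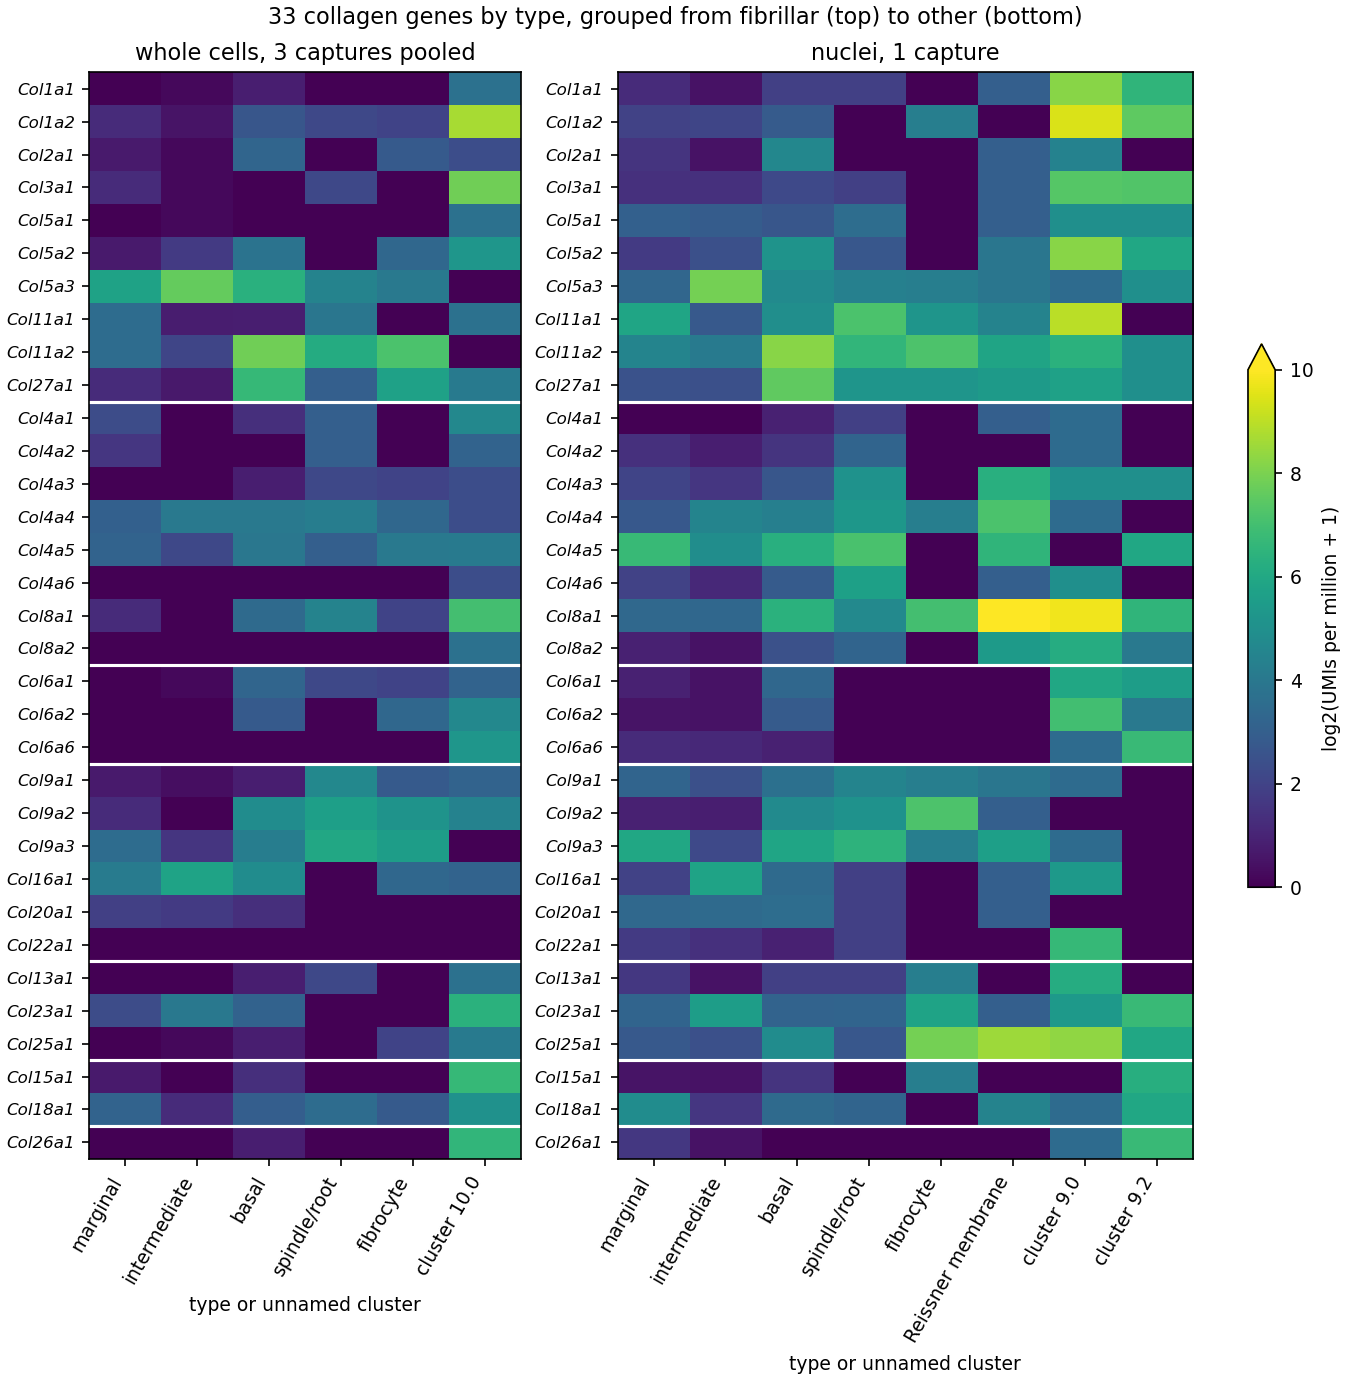
Level of each of the 33 collagen genes as log2(CPM + 1), in whole cells (left, 3 captures pooled) and nuclei (right, 1 capture), for the named types and for unnamed clusters 10.0, 9.0 and 9.2. White lines separate fibrillar, network, beaded filament, fibril-associated, transmembrane, multiplexin and other collagens from top to bottom. Col8a1 in Reissner's membrane nuclei lies beyond the top of the color scale at 2805 CPM.

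Intermediate cells were marked by Col5a3, which encodes the alpha 3 chain of the fibrillar type V collagen, and by Col16a1, a fibril-associated collagen. Col5a3 (chr9:20770050-20815067, mm10, minus strand) stood at 181, 177 and 226 CPM in the intermediate cells of captures 1 to 3. Its levels were 102, 61.4 and 99.7 CPM in basal cells and 47.8, 62.1 and 41.2 CPM in marginal cells. Intermediate cells exceeded both types in every capture without overlap. In spindle/root cells Col5a3 reached only 29.0 and 26.6 CPM in captures 2 and 3, from 3 UMIs each. Against the mean of the log levels of the other 3 types, Col5a3 was higher in intermediate cells (log2 change 2.29, SE 0.16, edgeR adjusted p = 1.4e-19) and lower in spindle/root cells (log2 change -2.05, SE 0.48, adjusted p = 0.00062). The nuclei gave 241 CPM in intermediate (222 to 261), 26.3 in basal (17.6 to 37.8), 19.4 in spindle/root (7.78 to 39.9) and 8.90 in marginal nuclei (6.33 to 12.2). A UMI of Col5a3 was found in 58.9% of intermediate cells at a median depth of 6200 UMIs, compared with 6 of 100 erythroid cells, which should lack the gene, at 10193.5 UMIs. When every barcode was thinned to 500 UMIs the intermediate share fell to 8.43% and the erythroid share to 0 of 100.

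Col16a1 (chr4:130047840-130099283, plus strand) followed the same order of types. Its levels were 48.3, 55.5 and 56.6 CPM in intermediate, 19.9, 31.4 and 29.5 CPM in basal and 19.9, 16.1 and 16.0 CPM in marginal cells, and 0 UMIs were counted in spindle/root cells. Intermediate cells again lay above every other type in each capture, while basal and marginal cells were level in capture 1. The pooled intermediate level was 3.27 times the marginal level, 1.96 times the basal level and at least 5.16-fold higher than in spindle/root cells, taking 3 counts over the pooled cells as the floor. Col16a1 was called higher in intermediate cells (adjusted p = 1.2e-11) and lower in spindle/root cells (adjusted p = 0.0018), the latter with an adjusted p of 0.055 without capture 3 and of 0.0010 to 0.055 over all 14 alternative settings. The call for basal cells (adjusted p = 0.040) came from a contrast that includes the spindle/root sums of 0, and the basal level was below that of intermediate cells. Without capture 2 its adjusted p was 0.30 and without capture 3 it was 0.19, the range over all alternatives being 0.036 to 0.30. In nuclei Col16a1 stood at 54.6 CPM in intermediate (45.8 to 64.5) and at 9.98 in basal nuclei (4.98 to 17.9).

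Counting all 6 tested collagens, 2 were higher and 4 lower in intermediate cells, where 17.7% of the 7047 genes tested were called higher and 17.7% lower. The 4 lower genes were Col11a2, Col9a3, Col27a1 and Col9a2, the collagens of basal and spindle/root cells described further on. Without the count filter a further gene, the transmembrane collagen Col23a1, was higher in intermediate cells (adjusted p = 2.9e-05), against 11.1% of all genes. Col23a1 stood at 14.0, 14.5 and 15.9 CPM in intermediate cells, and no other of the 4 SV types or fibrocytes exceeded 11.1 CPM in any capture. Its 115 UMIs in intermediate nuclei were 52.0% of all kept nuclear UMIs of the gene, with 15.1% of the nuclei. Outside the named types Col23a1 was higher than in intermediate cells or nuclei in 2 unnamed clusters. Cluster 10.0, 42 cells with 245190 UMIs of all genes, held 20 of its 189 kept cell UMIs. Cluster 9.2, 37 nuclei with 64923 UMIs of all genes, held 7 of its 221 kept nuclear UMIs. In the same fit 7 collagens were lower in intermediate cells, against 7.52% of all genes, with Col8a1, Col4a1 and Col18a1 added to the 4 above. Col8a1 and Col4a1 had 0 UMIs in intermediate cells, where a floor of 3 counts is 0.449 CPM.

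The marginal and basal levels of Col5a3, Col16a1 and Col23a1 were set beside the markers of intermediate cells. In marginal cells, where intermediate markers reached 30.5% of their intermediate level, Col5a3, Col16a1 and Col23a1 reached 27.2%, 30.6% and 26.8% of theirs. In basal cells the markers stood at 39.7% and the genes at 40.9%, 51.0% and 51.7%. In nuclei the marker share dropped to 4.26% in marginal and 14.6% in basal nuclei. Col5a3 dropped to 3.70% and 10.9% and Col16a1 to 5.44% and 18.3%, while Col23a1 stood at 17.8% and 17.7%. The part of intermediate cell RNA in the marginal and basal levels was not tested.

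**Figure D3:**
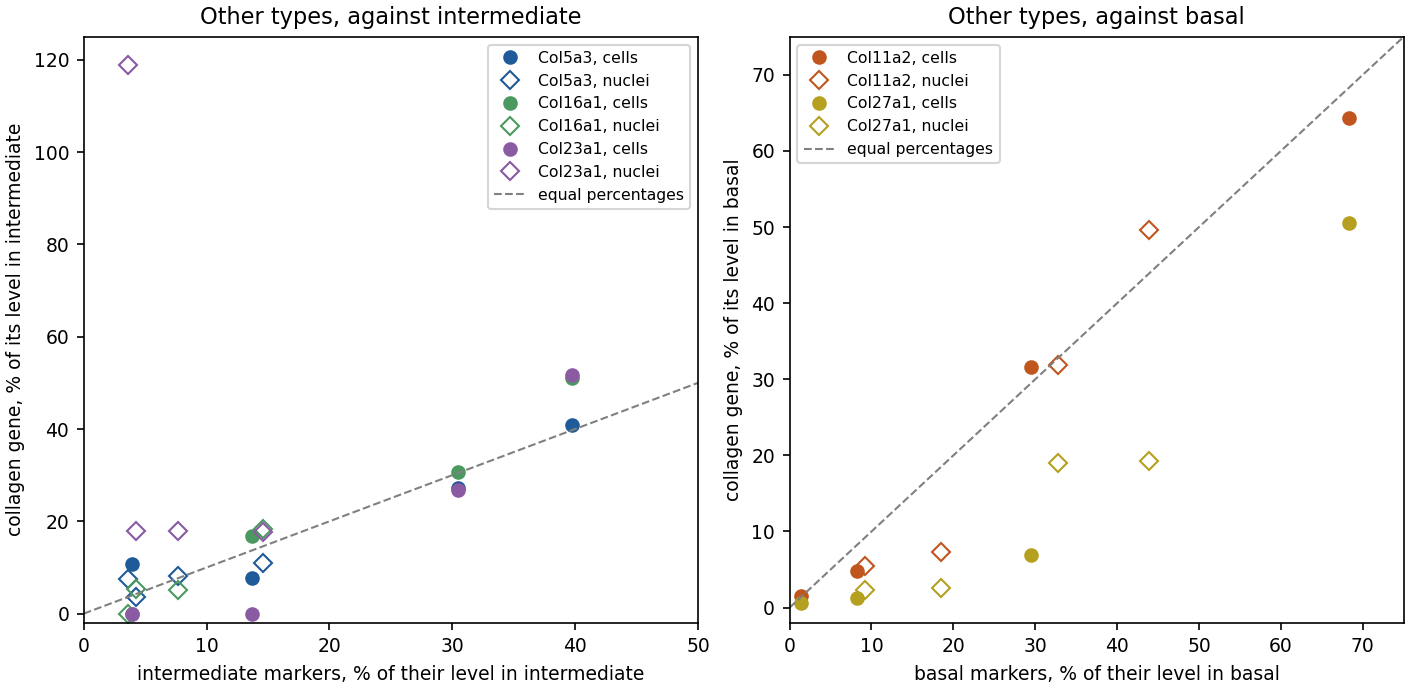
Level of collagen genes in each other SV type and in fibrocytes as a percentage of the level in intermediate (left) or basal (right) cells or nuclei, against the same percentage for the summed markers of that type. Filled circles are cells and open diamonds nuclei, and the dashed line marks equal percentages. Col5a3 in cells lies close to the line in marginal and basal cells, while Col23a1 at 119% in fibrocyte nuclei rests on 3 UMIs.

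The promoters of both genes, shown because their transcripts were highest in the same type, run from 250 bases before to 50 after the RefSeq start on GRCm38.p6. They lie at chr9:20815018-20815317 on the minus strand (Col5a3) and at chr4:130047590-130047889 on the plus strand (Col16a1). Capitals mark the TATA box motif (written TATAAA), the box of the letters CCAAT and the GC box motif (written GGGCGG), each searched on both strands.
Col5a3: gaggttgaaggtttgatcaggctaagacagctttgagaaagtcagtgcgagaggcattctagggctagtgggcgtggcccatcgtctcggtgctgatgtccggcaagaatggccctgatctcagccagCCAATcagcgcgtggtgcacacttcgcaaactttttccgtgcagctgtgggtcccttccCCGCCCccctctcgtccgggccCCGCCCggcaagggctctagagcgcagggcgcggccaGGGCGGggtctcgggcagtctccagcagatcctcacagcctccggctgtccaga
Col16a1: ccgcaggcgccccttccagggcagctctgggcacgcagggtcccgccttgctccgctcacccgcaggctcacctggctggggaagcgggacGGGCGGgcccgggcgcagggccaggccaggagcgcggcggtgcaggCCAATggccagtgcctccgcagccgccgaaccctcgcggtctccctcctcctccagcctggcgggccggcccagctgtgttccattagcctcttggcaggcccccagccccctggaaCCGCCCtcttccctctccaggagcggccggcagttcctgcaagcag
Both windows hold a CCAAT and at least 2 GGGCGG matches and no TATAAA. Their GC content was 63.3% and 74.3%, and the median over all promoters was 52.7%.

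The fibrillar chains Col11a2 and Col27a1 were higher in basal cells than in the other 3 types. Col9a2, a chain of the fibril-associated type IX collagen, was also called higher there. Its pooled level was 27.9 CPM in basal cells, below the 49.5 CPM from 14 UMIs in spindle/root cells. However, 8 of these 14 UMIs came from capture 1, which entered no test for this type, and 6 of them from a single cell. Col11a2 (chr17:34039437-34066685, plus strand) stood at 207, 246 and 192 CPM in the basal cells of captures 1 to 3. In marginal cells its levels were 12.0, 14.9 and 2.29 CPM, and in intermediate cells 3.51, 3.10 and 3.42 CPM. Spindle/root cells lay in between with 116 and 35.5 CPM in captures 2 and 3. Of the 12 UMIs behind the value of capture 2, 7 came from a single cell. The basal level was the highest of the 4 types in each capture, without overlap. Against the other 3 types, Col11a2 was higher in basal cells (log2 change 3.95, SE 0.20, adjusted p = 1.1e-26) and lower in intermediate (-3.69, SE 0.34, adjusted p = 1.5e-14) and marginal cells (-1.94, SE 0.37, adjusted p = 1.9e-05). The nuclei kept the order, with 295 CPM in basal (264 to 329), 94.0 in spindle/root (65.1 to 131), 21.7 in marginal (17.5 to 26.5) and 16.0 in intermediate nuclei (11.5 to 21.8). Col11a2 was detected in 83.7% of basal cells, at a median of 11609.5 UMIs, and in 0 of 100 erythroid cells, and after thinning to 500 UMIs in 12.5% of basal cells. In nuclei the shares were 37.9% in basal, at a median of 1534.5 UMIs, and 7.29% in erythroid nuclei, at 5277 UMIs.

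Col27a1 (chr4:63214004-63334991, plus strand), a fibrillar collagen of cartilage, was counted with 36, 79 and 18 UMIs in the basal cells of the 3 captures, or 102, 118 and 66.5 CPM. Marginal cells held 2 UMIs, intermediate cells 4 and spindle/root cells 2 over all captures. The pooled levels were 103 CPM in basal (86.3 to 122), 7.07 in spindle/root (0.856 to 25.5), 1.34 in marginal (0.162 to 4.84) and 0.599 in intermediate cells (0.163 to 1.53). None of these intervals reached the basal one. Col27a1 was higher in basal cells (adjusted p = 1.1e-20), and its lower call in intermediate cells (adjusted p = 0.013) was lost without capture 2 and without capture 3 (adjusted p = 1.00 in each, and 0.0014 to 1.00 over all alternatives). In nuclei the basal level was 190 CPM (165 to 217) and the next, in spindle/root nuclei, 35.9 CPM (19.1 to 61.5).

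Col9a2 (chr4:121039385-121055322, plus strand) stood at 31.2, 27.0 and 25.8 CPM in basal cells, with a spread between captures of 2.84 CPM (SD, n = 3). Marginal cells held 2 UMIs and intermediate cells 0 in total. The pooled basal level was at least 62.0-fold higher than that of intermediate cells, again with a floor of 3 counts. Col9a2 was called higher in basal cells (adjusted p = 2.6e-07) and lower in intermediate cells (adjusted p = 2.3e-05). Including Col16a1, 4 of the 6 tested collagens were higher in basal cells, where 16.0% of all genes were higher. No tested collagen was lower in basal cells by edgeR or by DESeq2, and none had an unadjusted p under 0.05 in that direction, where 10.9% of all genes were lower. The values of Col5a3 and Col9a3 in basal cells, log2 changes of 0.34 (adjusted p = 0.35) and 0.71 (adjusted p = 0.27), did not pass the test.

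Without the count filter 9 collagens were higher in basal cells, against 9.24% of all genes, and Col16a1 was not among them. The genes added were Col2a1, the main fibrillar collagen of cartilage, Col5a2, the beaded filament chains Col6a1 and Col6a2, and the network chains Col4a5 and Col8a1. Col5a2 stood at 8.52, 13.5 and 18.5 CPM in basal cells, and its largest value in the other 3 types was 3.98 CPM, from a single UMI. Col2a1 was counted with 1, 8 and 2 UMIs in the basal cells of the 3 captures and with 1 UMI each in all marginal and all intermediate cells. Of the 8 UMIs in capture 2, 6 came from a single cell. Col6a1 had 11 UMIs and Col6a2 8 UMIs in basal cells, in a ratio close to the 10 and 7 UMIs of basal nuclei. The other 3 types did not include fibrocytes. The pooled basal level was 1.43 times the fibrocyte level for Col5a2 and 1.39 times for Col2a1, from 3 and 2 fibrocyte UMIs. Fibrocytes stood above basal cells for Col6a2, 1.48 times from 3 UMIs, and for Col4a5, 1.04 times from 5 UMIs. Col6a1 and Col8a1 had 1 UMI each in fibrocytes. In nuclei, basal was also the SV type with the highest level of Col2a1, at 23.6 CPM (15.4 to 34.6), and of Col5a2, at 34.5 CPM (24.4 to 47.3).

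**Figure D4:**
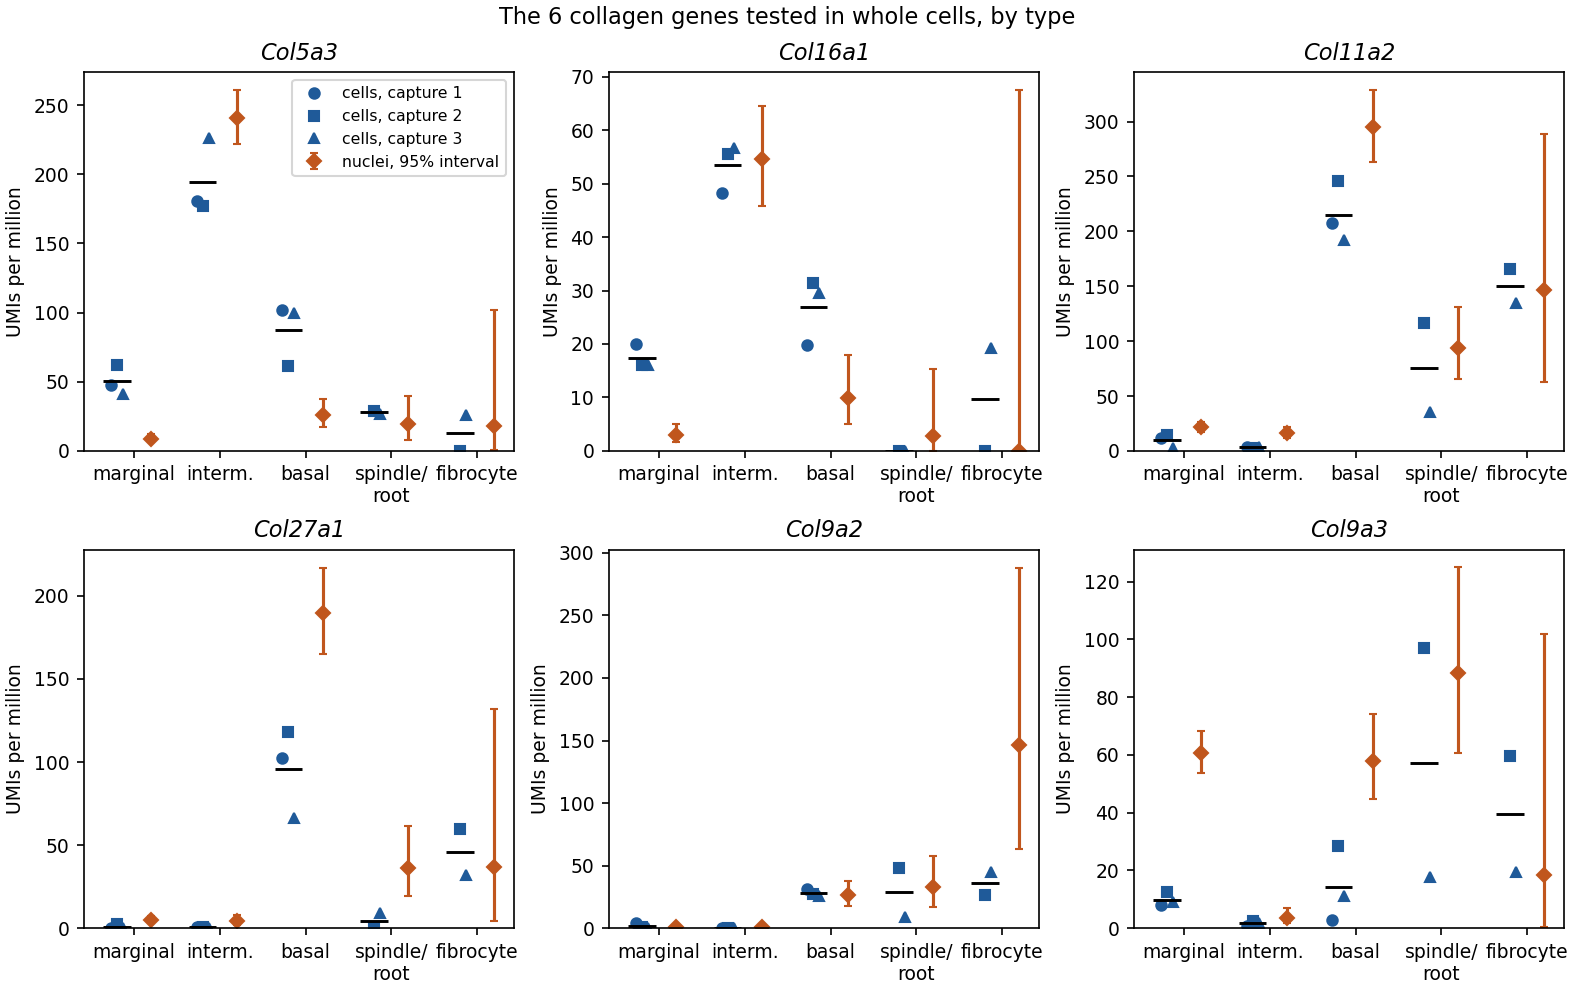
Levels in CPM of the 6 collagen genes tested in whole cells, by SV type and fibrocyte. Blue symbols are captures 1, 2 and 3 of cells with a black line at their mean, shown where a capture held at least 5 cells of the type, and orange diamonds are nuclei with exact 95% Poisson intervals. Col5a3 and Col16a1 are highest in intermediate cells and nuclei, and Col11a2 and Col27a1 in basal cells and nuclei.

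The promoters of the 2 basal fibrillar genes follow, at chr17:34038888-34039187 (Col11a2) and chr4:63215162-63215461 (Col27a1), both on the plus strand of GRCm38.p6. Capitals mark the same 3 motifs on either strand.
Col11a2: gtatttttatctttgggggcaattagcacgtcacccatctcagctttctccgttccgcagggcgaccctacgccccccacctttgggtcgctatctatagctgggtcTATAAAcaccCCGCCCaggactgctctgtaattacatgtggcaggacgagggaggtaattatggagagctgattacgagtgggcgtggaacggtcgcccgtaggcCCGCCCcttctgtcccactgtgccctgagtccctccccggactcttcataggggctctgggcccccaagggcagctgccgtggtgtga
Col27a1: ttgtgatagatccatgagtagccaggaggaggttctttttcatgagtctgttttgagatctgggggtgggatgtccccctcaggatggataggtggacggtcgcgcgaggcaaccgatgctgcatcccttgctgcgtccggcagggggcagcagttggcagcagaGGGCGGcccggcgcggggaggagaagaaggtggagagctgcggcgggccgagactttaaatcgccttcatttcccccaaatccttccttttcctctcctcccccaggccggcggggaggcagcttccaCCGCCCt
Col11a2 is 1 of 3 member promoters with a TATAAA, which 13.6% of all 32851 promoters hold. Among the 29 promoter entries found for 26 of the 33 genes, 20 hold a GGGCGG and 10 a CCAAT, compared with 35.7% and 37.4% of all promoters. The E-box forms CACGTG and CATGTG were also searched on both strands. The first occurred in 0 of the 29 and the second in 2, and in 7.15% and 14.2% of all promoters.

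The collagens higher in spindle/root cells included the type IX chains Col9a3 and Col9a2, with few UMIs behind them. Col9a3 (chr2:180597790-180622189, plus strand) overlaps the antisense gene Tcfl5, and how strand was treated in counting was not given in the sources used here. It stood at 96.8 and 17.7 CPM in the spindle/root cells of captures 2 and 3. Its levels were 2.84, 28.5 and 11.1 CPM in basal, 7.97, 12.4 and 9.15 CPM in marginal and 0.878, 2.41 and 1.90 CPM in intermediate cells. In capture 3 the spindle/root value was thus close to the basal one, and only capture 2 set it far above. Col9a2 stood at 48.4 CPM in capture 2, above the basal 27.0 CPM, but at 8.87 CPM, a single UMI, in capture 3, below the basal 25.8 CPM. Col9a3 was higher in spindle/root cells (log2 change 2.58, SE 0.64, adjusted p = 0.0013) and lower in intermediate cells (-2.98, SE 0.48, adjusted p = 4.6e-07), and Col9a2 was higher in spindle/root cells with an adjusted p of 0.0015.

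Col11a2 was the last of 3 collagens higher in spindle/root cells (log2 change 1.68, SE 0.46, adjusted p = 0.0041), where 13.3% of all genes were higher. Without capture 2 none of the 3 was called. Col9a3 then fell below the count filter, and the adjusted p was 0.52 for Col11a2 (0.0010 to 0.52 over all alternatives) and 0.50 for Col9a2 (0.00014 to 0.50). Basal markers in spindle/root cells stood at 29.5% of their basal level and Col11a2 at 31.6% of its own, and in nuclei the values were 32.8% and 31.9%. The part of basal cell RNA in these levels was not tested. Col5a3 and Col16a1 made 2 of the 6 lower in spindle/root cells, where 9.71% of all genes were lower. Without the count filter 5 collagens were higher, against 5.62% of all genes. The added genes were Col9a1, the remaining type IX chain, with 7 UMIs in 33 cells, and Col8a1, whose 6 UMIs came from 2 cells of capture 3, 5 of them from a single cell.

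Among the 4 main types of nuclei, basal had the highest level of 8 collagens with at least 10 UMIs there, spindle/root of 7, intermediate of 3 and marginal of 1. The share over all genes was not computed, so these counts say nothing particular to collagens. The 7 of spindle/root nuclei were Col4a3, Col4a4, Col4a5, Col4a6, Col9a2, Col9a3 and Col11a1. With 1 library these levels carry no test, and the intervals of Col4a4, Col4a5, Col9a2 and Col9a3 overlapped those of the next type. The spindle/root nuclei pooled cluster 12, 107 nuclei with Epyc and Lgr5 among the leading genes, and cluster 13, 100 nuclei with Cldn6 and Ptprz1. Organ of Corti markers summed to 279 CPM in spindle/root nuclei, where 3 of the 6 had 0 UMIs, and to no more than 7.98 CPM in the other SV types. In cells these values were 35.3 CPM, with 4 of the 6 markers at 0 UMIs, and 1.55 CPM. The part of organ of Corti RNA in the spindle/root levels was not tested. Col9a3 stood at 88.5 CPM (60.5 to 125) in spindle/root nuclei, and Col9a2 at 33.2 CPM (17.1 to 57.9). Col4a6, a type IV chain of selected epithelial basement membranes, had 18 of its 50 kept UMIs (36.0%) in the spindle/root nuclei, which made up 2.13% of nuclei. Its level there, 49.8 CPM (29.5 to 78.6), lay above that of basal nuclei at 6.35 CPM (2.55 to 13.1). Col11a1, the alpha 1 chain of type XI collagen, stood at 144 CPM (107 to 189) in spindle/root and at 57.9 CPM (51.0 to 65.5) in marginal nuclei. Its level was higher still in unnamed cluster 9.0, whose 46 nuclei held 48 of its 482 kept UMIs (9.96%). The most in any 1 unnamed nucleus was 22 UMIs. In cells, the same genes gave 4 UMIs of Col11a1 and 0 of Col4a6 in spindle/root.

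Few collagens were called in marginal cells. Of the 6 tested collagens, 1 was lower in marginal cells, the Col11a2 described above, where 10.2% of all genes were lower. None was higher by edgeR or by DESeq2, nor at an unadjusted p under 0.05, where 16.0% of all genes were higher. Without the count filter 1 collagen was higher, against 7.80% of all genes. This was Col11a1, at 7.97, 9.93 and 13.7 CPM in the marginal cells of captures 1 to 3 and at no more than 1.14 CPM in intermediate cells (adjusted p = 0.023), while spindle/root cells reached 9.68 and 17.7 CPM from 1 and 2 UMIs in captures 2 and 3.

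Marginal nuclei gave a fuller picture. With 26.7% of the kept nuclei, they held 469 of 737 UMIs of Col4a5 (63.6%), 124 of 193 of Col18a1 (64.2%), 266 of 439 of Col9a3 (60.6%) and 254 of 482 of Col11a1 (52.7%). By level, Col9a3 stood at 60.7 CPM in marginal nuclei, close to 58.0 CPM in basal and below 88.5 CPM in spindle/root nuclei. Col11a1, at 57.9 CPM in marginal nuclei, was also below its 144 CPM in spindle/root nuclei. Col4a5 stood at 107 CPM in marginal nuclei (97.5 to 117) and Col18a1, a basement membrane collagen that yields endostatin, at 28.3 CPM (23.5 to 33.7). For Col18a1 the next SV type was basal with 9.98 CPM (4.98 to 17.9), and its interval stayed below the marginal one. The spindle/root level of 8.29 CPM rested on 3 UMIs. In whole cells Col18a1 stood at 8.03 CPM in marginal, 6.97 in basal and 10.6 in spindle/root cells, so marginal cells were not highest. For Col4a5 the spindle/root level of 138 CPM (103 to 182) overlapped that of marginal nuclei. A UMI of Col4a5 was present in 15.9% of marginal nuclei at a median depth of 1393 UMIs and in 0.625% of erythroid nuclei at 5277 UMIs, and in 5.44% and 0 of 480 after thinning to 500 UMIs. In whole marginal cells Col4a5 gave only 12 UMIs, or 8.03 CPM (4.15 to 14.0), so that the nuclear level was not seen at that height in cells. With a limit of 0.5 on the second class when naming clusters, only 363 of the 2592 marginal nuclei kept their name, so the shares held by marginal nuclei depend on that limit.

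In fibrocytes of the spiral ligament, the leading collagens were Col11a2, Col27a1, Col9a2 and Col9a3. The comparison of 5 types, over 6352 genes, was added after the data were seen, and captures 2 and 3 gave the fibrocyte sums. Col11a2 stood at 166 and 135 CPM, Col27a1 at 59.7 and 32.1 CPM and Col9a2 at 26.5 and 45.0 CPM in the fibrocytes of the 2 captures. Col9a3 was counted with 9 and 3 UMIs. All 4 genes were higher in fibrocytes than in the mean of the 4 main types, where 9.16% of all genes were higher, with an adjusted p of 6.8e-10 for Col11a2, 1.9e-05 for Col27a1, 0.00019 for Col9a2 and 0.024 for Col9a3. Without capture 3, 2 of the 4 were called, and the adjusted p was 0.12 for Col9a2 (2.0e-06 to 0.12 over all alternatives) and 0.070 for Col9a3 (0.018 to 0.59). Col5a3, at 0 and 25.7 CPM, was lower (adjusted p = 0.018), where 2.66% of all genes were lower. Without capture 2 its adjusted p was 0.31 and in DESeq2 it was 0.055, with 0.0040 to 0.31 over all alternatives.

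Set directly against fibrocytes, basal cells differed in 1 of the 6 collagens. Col5a3 was higher in basal cells (log2 change 2.36, SE 0.61, adjusted p = 0.012), where 1.29% of all genes were higher. Without capture 2 its adjusted p was 0.078, and over all alternatives it ranged from 0.0023 to 0.23. No collagen was lower in basal cells by edgeR or by DESeq2, where 3.20% of all genes were lower, although Col9a3 had an unadjusted p of 0.035. The differences of Col11a2 (log2 change 0.18, SE 0.27, adjusted p = 0.82) and Col27a1 (0.67, SE 0.45, adjusted p = 0.51) did not pass the test. Basal markers stood at 68.3% of their basal level in fibrocytes, beside 64.4% for Col11a2 and 50.6% for Col27a1, and fibrocyte markers reached 3681 CPM in basal cells and 15483 CPM in fibrocytes. The part of basal cell RNA in the fibrocyte levels was not tested. Col5a3 stood at 40.9% of its intermediate level in basal cells and at 7.78% in fibrocytes, beside 39.7% and 13.7% for the intermediate markers. The part of intermediate cell RNA in the Col5a3 difference was not tested. In nuclei Col5a3 stood at 26.3 CPM in basal and at 18.3 CPM, from a single UMI, in fibrocyte nuclei. Clusters 9.1 and 9.4, of 37 and 22 nuclei, also had fibrocyte markers in the lead, but basal markers came too close behind and both stayed unnamed. In the 24 fibrocyte nuclei, Col25a1, a transmembrane collagen, gave 13 UMIs, or 238 CPM (127 to 407). These came from 5 nuclei, with 6 UMIs in a single nucleus. Col9a2 gave 8 UMIs, or 146 CPM (63.2 to 288). Erythroid markers stood at 67294.5 CPM in fibrocyte nuclei, above the fibrocyte markers at 52409.3 CPM, and at 7513 CPM in basal nuclei. The median mitochondrial share was 14.7% in fibrocyte and 4.12% in basal nuclei. The part of erythroid RNA in the levels of fibrocyte nuclei was not tested.

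The balance of fibrillar against network collagens was described as the share of fibrillar UMIs among both classes. In cells it was 90.9%, 92.1% and 91.3% in intermediate and 91.6%, 92.1% and 87.6% in basal cells of captures 1 to 3. Marginal cells gave 62.9%, 80.0% and 89.7%, and spindle/root cells 94.1% and 44.4% in captures 2 and 3. Intermediate and basal cells therefore lay close together, while the marginal and spindle/root values spread over a wide range. In capture 1, 9 of the network UMIs of marginal cells, 6 of Col4a1 and 3 of Col4a2, came from a single cell. In nuclei the share was 81.4% in intermediate (78.6 to 83.9), 75.6% in basal (72.6 to 78.3), 50.9% in spindle/root (44.1 to 57.6) and 45.8% in marginal nuclei (42.8 to 48.9). Fibrocytes had 89.8% ± 10.2 (SD, n = 2) in cells and 63.6% (40.7 to 82.8) in nuclei.

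**Figure D5:**
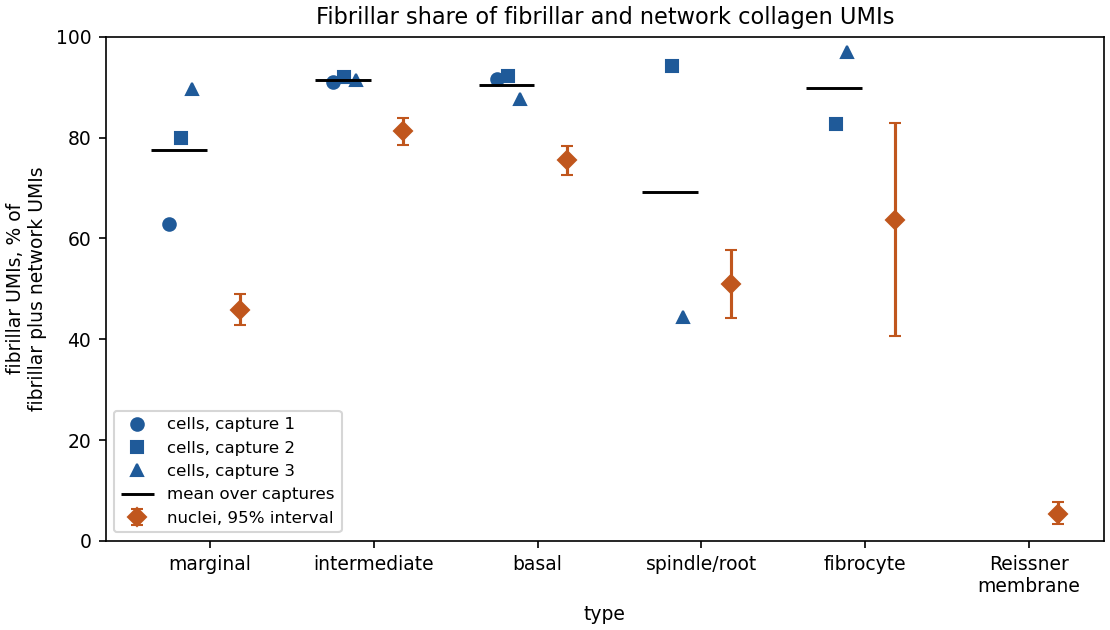
Fibrillar UMIs as a percentage of fibrillar plus network collagen UMIs by type, in cells (blue, by capture, black line at the mean over captures with at least 5 cells of the type) and nuclei (orange, exact 95% binomial interval). In the 4 SV types and fibrocytes the nuclei lie below the mean of cells, and Reissner's membrane nuclei lowest at 5.26%.

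The classes were composed differently in each type. Col5a3 supplied 96.1% of the 1368 fibrillar UMIs of intermediate cells, and Col11a2 and Col27a1 supplied 51.3% and 23.6% of the 563 of basal cells. In marginal cells Col5a3 supplied 80 of 120 fibrillar UMIs (66.7%), the gene that stood at 27.2% of its intermediate level there beside 30.5% for the intermediate markers, and the part of intermediate cell RNA in the marginal fibrillar share was not tested. In marginal nuclei Col11a1 was instead the largest fibrillar contributor with 52.4%. Among network UMIs, Col4a4 gave 103 of 126 in intermediate cells (81.7%), and Col4a5 gave 81.8% of the 573 in marginal nuclei. In basal nuclei, Col8a1 and Col4a5 shared the network UMIs with 41.4% and 39.5%.

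Col8a1 is a short chain that forms hexagonal lattices in Descemet's membrane of the cornea. Among the named types of nuclei it was highest in Reissner's membrane, the thin sheet that bounds the endolymph opposite the SV. The 99 nuclei of this type, 1.02% of all kept nuclei, held 398 of 761 UMIs of Col8a1 (52.3%), in 76 nuclei with at most 23 in any of them. Its level was 2805 CPM there, and 82.5 CPM (66.4 to 101) in basal nuclei, the next of the SV types, with 128 CPM from 7 UMIs in fibrocyte nuclei. Col8a2, its partner chain, gave 6 UMIs in the same nuclei. Col25a1 had 53 UMIs there, or 374 CPM (280 to 489), and Col4a4 20 UMIs, or 141 CPM (86.1 to 218). Unnamed cluster 9.0, with 46 nuclei and 97013 UMIs of all genes, also held these collagens. It had 86 UMIs of Col8a1 (11.3%), a level above that of basal nuclei, 7 of Col8a2 and 31 of Col25a1 (13.1%). No cell cluster carried the name of Reissner's membrane, so the levels of its nuclei could not be set beside whole cells.

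The genes of partner chains in type IV collagen lie head to head, and their counts could be set side by side. Col4a3 and Col4a4 start 72 bp apart on chromosome 1, Col4a1 and Col4a2 21 bp apart on chromosome 8, and Col4a5 and Col4a6 1309 bp apart on the X chromosome. The start region of Col4a4 is printed on its own strand (chr1:82586800-82587099, minus strand, GRCm38.p6), with the bases between the 2 GENCODE starts in capitals.
Col4a4: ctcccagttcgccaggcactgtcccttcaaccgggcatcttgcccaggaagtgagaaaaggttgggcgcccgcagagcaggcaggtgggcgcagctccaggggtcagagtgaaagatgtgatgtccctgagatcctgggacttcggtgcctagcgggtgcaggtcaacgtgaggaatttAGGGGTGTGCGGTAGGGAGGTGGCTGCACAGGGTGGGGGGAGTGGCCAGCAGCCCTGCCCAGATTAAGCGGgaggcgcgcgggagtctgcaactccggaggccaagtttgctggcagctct
Although the protein network combines Col4a3, Col4a4 and Col4a5 chains, the counts of the neighbors were unequal in intermediate cells. There 0 UMIs of Col4a3 stood beside 103 of Col4a4, which puts the share of Col4a3 at no more than 3.52%. Basal cells gave 1 beside 20, and all cell barcodes together 4 beside 172, so the imbalance was not particular to intermediate cells. In intermediate nuclei the pair gave 5 and 55 UMIs, so Col4a3 was 8.33% (2.76 to 18.4). In spindle/root nuclei the counts were 12 and 14, or 46.2% (26.6 to 66.6), and in marginal nuclei 14 and 25. The intervals of intermediate and spindle/root nuclei did not overlap. Col4a6 was counted with 13 UMIs beside 469 of Col4a5 in marginal nuclei, where Col4a5 was 97.3% of the pair (95.4 to 98.6), and with 18 beside 50 in spindle/root nuclei, where it was 73.5% (61.4 to 83.5).

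Partner chains of other types were also uneven. Of the type XI chains, basal cells held 1 UMI of Col11a1 beside 289 of Col11a2, and basal nuclei 33 beside 325, whereas marginal nuclei held 254 beside 95. Col11a1 was thus 9.22% (6.43 to 12.7) of the pair in basal and 72.8% (67.8 to 77.4) in marginal nuclei. Of the type IX chains, marginal nuclei held 4 UMIs of Col9a2 beside 266 of Col9a3, or 1.48% (0.405 to 3.75), and basal nuclei 29 beside 64, or 31.2% (22.0 to 41.6). Whether the overlap of Col9a3 with Tcfl5 bears on these counts was not tested. Of the type V chains, Col5a1 and Col5a2 gave 32 and 10 UMIs in marginal but 6 and 38 in basal nuclei.

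Most cell UMIs of Col1a2 and Col3a1, chains of the classical fibrillar collagens of connective tissue, lay outside the named SV types. Unnamed cluster 10.0, 42 cells with Ccl11, Meg3, Dcn, Mfap5 and Emcn among its leading genes, held 100 of 117 UMIs of Col1a2 (85.5%) and 55 of 60 of Col3a1 (91.7%) in kept cells. It also held 25 of 29 UMIs of Col15a1, 23 of 25 of Col26a1, 31 of 55 of Col8a1 and all 9 of Col6a6, and 0 of the 1860 of Col5a3 and 0 of the 400 of Col11a2. Among nuclei, unnamed cluster 9.0, 46 nuclei with Slc47a1, Sfrp4, Penk and Mgp among its leading genes, held 29 of 61 UMIs of Col1a1 (47.5%), 67 of 148 of Col1a2 (45.3%), 12 of 26 of Col6a2 and 10 of 29 of Col22a1. By contrast, the 996 intermediate cells held 3 UMIs of Col1a2, and the 104 basal cells 7. Neither cluster could be assigned a type from the markers.

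The remaining genes gave small counts. Col20a1, a fibril-associated collagen, had 15 UMIs in intermediate cells and 10.0 CPM (6.49 to 14.8) in intermediate, 10.9 CPM (5.62 to 19.0) in basal and 9.35 CPM (6.71 to 12.7) in marginal nuclei, with overlapping intervals. Col22a1 had 0 UMIs in kept cells and 29 in kept nuclei. Col13a1, a transmembrane collagen, had 9 of its 24 kept nuclear UMIs in marginal nuclei, which made up 26.7% of nuclei. Another 7 lay in the 46 nuclei of unnamed cluster 9.0. Col5a1 gave 10 of its 14 kept cell UMIs in erythroid cells of capture 3, from 7 cells, and 22 of its 91 kept nuclear UMIs in erythroid nuclei. Erythroid nuclei were 4.94% of nuclei but were deep, with 2656111 UMIs of all genes. Marginal nuclei, with 4384009 UMIs of all genes, held 32 of the 91. Comparing the highest main type of each gene, where at least 10 UMIs were counted in that type, 10 of 11 genes had the same type in cells and nuclei. These were 3 genes in intermediate, 5 in basal and 2 in spindle/root. Genes enter this count through the type in which they are high, and the same markers named the types in cells and nuclei. The share over all genes was not computed, so the count says nothing particular to collagens.

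Genes that process collagen were examined as a list of 73 genes in 5 groups, namely chain maturation, propeptide removal and cross-linking, fibril-binding proteoglycans, receptors, and breakdown. Of the 33 that could be tested, 16 were higher and 4 lower in basal cells, 9 and 10 in intermediate, 3 and 7 in marginal and 7 and 3 in spindle/root cells. Over all genes, the shares called higher and lower were 16.0% and 10.9% in basal, 17.7% and 17.7% in intermediate, 16.0% and 10.2% in marginal and 13.3% and 9.71% in spindle/root cells, so that 3 of 33 higher in marginal and 3 of 33 lower in spindle/root cells were no more than the background. The median log2 fold change of the 33 was 0.59 in basal cells beside 0.02 over all genes, 0.20 beside 0.01 in intermediate, -0.16 beside 0.07 in marginal and -0.43 beside -0.09 in spindle/root cells. In basal cells the higher genes included 6 of 14 for chain maturation, 4 of 5 for propeptide removal and cross-linking and 3 of 6 receptors. The 3 with the largest fitted change were Mrc2, an endocytic collagen receptor, Ddr2, a receptor kinase for fibrillar collagen, and Creb3l1, a transcription factor that promotes collagen gene expression. Mrc2 stood at 48.3, 52.4 and 62.8 CPM in basal cells with 2 UMIs in all intermediate cells, and Ddr2 at 53.9, 50.9 and 29.5 CPM with 4. Both had 0 UMIs in marginal cells (adjusted p = 7.4e-15 and 2.8e-12).

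In the other types different genes of the list led. Mmp14, a membrane-bound collagenase, stood at 81.6, 78.2 and 53.5 CPM in intermediate cells and at no more than 32.9 CPM in any other type and capture. Intermediate cells were higher in Mmp14 (log2 change 2.07, SE 0.21, adjusted p = 6.6e-13), in the proteoglycan Prelp (1.76, SE 0.15, adjusted p = 1.6e-16) and in the lysyl hydroxylase Plod1 (1.34, SE 0.24, adjusted p = 4.7e-06). Adgrg6, a receptor that binds type IV collagen, stood at 143, 129 and 140 CPM in marginal cells and at 62.5, 65.9 and 48.0 CPM in basal cells. Marginal cells were higher in Adgrg6 (log2 change 1.82, SE 0.18, adjusted p = 3.0e-13), in Plod2 (1.24, SE 0.39, adjusted p = 0.011) and in the metalloproteinase inhibitor Timp3 (0.52, SE 0.11, adjusted p = 0.00023). Spindle/root cells, with 48.4 and 26.6 CPM of Plod2 beside 27.9, 29.8 and 27.4 CPM in marginal cells, were not below marginal cells in capture 2. Spindle/root cells were higher in Lum, a proteoglycan of collagen fibrils that also served as a fibrocyte marker, at 562 and 151 CPM in captures 2 and 3 with 0 UMIs in basal cells (adjusted p = 4.7e-24). They were also higher in Mmp15, at 155 and 168 CPM (adjusted p = 2.4e-10), and in Pcolce, an enhancer of propeptide removal, at 48.4 and 26.6 CPM (adjusted p = 0.0027). Against fibrocytes, basal cells were higher in 2 and lower in 2 of 32 tested genes of the list, where 1.29% and 3.20% of all genes were called.

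The ratio of nuclear to cellular level was set against gene length, since long introns can add to the RNA counted in nuclei where intronic reads are counted. Whether they were counted was not given in the sources used here. Over the genes with enough UMIs, Spearman's rho between the log2 ratio of nuclei to cells and the genomic span was 0.29 over 16 genes in basal, 0.25 over 13 in intermediate, 0.15 over 11 in marginal and 0.52 over 9 in spindle/root. These values describe genes that share the same libraries, which are not independent replicates. Over marginal genes the log2 ratio ranged from -2.59 to 3.74. Of the 33 genes, 13 overlap an antisense gene and 4 overlap another coding gene in GENCODE vM21, and the handling of strand in counting was not given in the sources used here.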

How the data were processed

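The authors dissected the SV of postnatal day 30 CBA/J mice, captured cells and nuclei on the 10x Genomics platform and deposited matrices of whole-number UMI counts by gene and barcode, made with Cell Ranger 2.0.0 on mm10 per the submitters' processing notes. How intronic reads and strand were treated in counting was not given in the sources used here. No cell annotation was used. Barcodes with at least 200 genes were kept, and Scrublet (scanpy 1.11.5) scores were used to remove expected doublets at 0.8% per 1000 barcodes (36 cells and 978 nuclei). Barcodes were clustered in Seurat 5.3.0 with 2000 variable genes, components passing a JackStraw p of 0.0001 and resolution 0.8, cells and nuclei apart. A cluster was named when 1 class of 109 markers in 17 classes led and the second class scored under 0.67 of it, and otherwise left unnamed.

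Raw counts were summed per type and capture (at least 5 cells) and tested with edgeR 4.0.16 (R 4.3.3; TMM, filterByExpr, robust quasi-likelihood test), with capture as a block and each type set against the mean of the logs of the other 3. An adjusted p (Benjamini-Hochberg over 7047 genes) under 0.05 was a call. DESeq2 1.42.0 was an alternative. The steps were tested on simulated data. The fibrocyte comparison was chosen after seeing the data. Sums of 1 capture share a suspension, and their residuals correlated by 0.122 to 0.371 in all 15 pairs of types, beside -0.351 to 0.040 in 30 pairs from different captures. Nuclei were a single library and were given levels with exact Poisson or binomial (Clopper-Pearson) intervals and no test. CPM include mitochondrial UMIs, which made up a median of 38.6% to 45.4% in kept cells and 8.23% in nuclei.

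The members and gene lists were chosen with earlier results of these data known. All collagens with at least 30 UMIs were named, and of the collagen-processing genes the 3 with the largest fitted change among those higher in each type. Gene positions and coding sequences came from GENCODE vM21 and promoters from RefSeq, both on GRCm38.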

Additional observations from a re-analysis of the deposited data

How the results depend on the processing

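Of the 223 alternative values of the counts and shares, 205 stayed close (a count within 1.5 times, a share in cells within 1 SD between captures, a share in nuclei within its 95% interval). The 205 include values that were bound to stay. Asking for at least 10 cells per sum, or a limit of 0.5 on the second class, left the cell sums of the 4 main types unchanged. The SD of the share was also wide in spindle/root cells, at 35.1, and in marginal cells, at 13.6. Reversal was scored only for the log2 changes of single genes, and no alternative value of these changed sign. Without the count filter, the number of collagens higher was 1 in place of 0 in marginal, 9 in place of 4 in basal and 5 in place of 3 in spindle/root cells, and the number lower in intermediate cells 7 in place of 4, since 29 collagens were then tested. At resolution 1.2, 1 collagen was higher in marginal cells, where 1410 of 8278 genes were higher. At resolution 0.4, 2 were lower there in place of 1, where 676 of 7333 genes were lower. With collagens allowed among the variable genes, 2 were lower in marginal cells, where 786 of 7175 genes were lower. In that setting 0 were lower in fibrocytes and 0 were higher in basal cells against fibrocytes. The fibrillar share of fibrocytes was then 78.0% in place of 89.8%. DESeq2 called 0 collagens lower in fibrocytes. Leaving out 1 capture gave 1 to 2 lower in marginal, 2 to 4 lower in intermediate, 0 to 3 higher and 1 to 2 lower in spindle/root cells, 2 to 4 higher and 0 to 1 lower in fibrocytes, and 0 to 1 higher in basal cells against fibrocytes. A type left with 1 capture is there assumed to vary like the others. The counts with 1 capture left out, and those of fibrocytes, are given without the share over all genes and say nothing particular to collagens. The causes of changes other than from fewer captures or more genes tested were not tested.

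Without the replicate block, which pairs the sums of a capture, the counts were the same: 2 collagens higher and 4 lower in intermediate, 4 higher and 0 lower in basal, 3 higher and 2 lower in spindle/root and 0 higher and 1 lower in marginal cells. Without TMM scaling the median log2 change over all genes in intermediate cells was -0.31 in place of 0.01. All genes then gave 698 higher and 2254 lower calls in place of 1247 and 1249 in intermediate, 1317 and 589 in place of 1126 and 719 in marginal, and 1240 and 414 in place of 934 and 684 in spindle/root cells, while no number of collagen calls changed by over 1.5 times. Among the log2 changes of single genes, 23 alternative values lost their call, 7 of them for Col16a1 in basal cells, and all 8 shares of barcodes with a UMI fell when barcodes were thinned to 500 UMIs. A limit of 0.5 on the second class left no fibrocyte cells and so gave no value there, and left 363 of 2592 marginal nuclei, whose fibrillar share was 46.8% in place of 45.8%. With 33 spindle/root cells and 62 fibrocytes, a single UMI stands for 3.53 and 3.07 CPM there, and levels of a few UMIs could not be told apart.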

Other observations

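Intermediate cluster 0, 547 cells, had Col5a3 as its leading gene by fold although collagens were kept out of the variable genes. In the single marginal cell of capture 1 that held 6 UMIs of Col4a1, Col4a2 gave 3 UMIs, and no other marginal cell of any capture held Col4a1. Among unnamed cells, 15 UMIs of Col4a1 in capture 3 came from 4 barcodes. Col5a1 in erythroid cells of capture 3 gave at most 3 UMIs in any of 7 cells, and in erythroid nuclei at most 3 in any of 15.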
